A study of Homo sapiens with 12 samples.

Results

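The insulin-like growth factor (IGF) system was followed through 9 genes: the binding proteins IGFBP1, IGFBP2, IGFBP3 and IGFBP4, the receptors IGF1R, IGF2R and INSR, and the insulin receptor substrates IRS1 and IRS2. They were chosen by name, with earlier results of these data known, as every probe set whose annotation gives 1 of these symbols and no other. IGFBP5 and IRS4, which were too dim to be tested, are not among them. They are 9 of 18417 genes measured in this way, on 10 probe sets because IGF1R has 2, and all 9 were bright enough to be among the 13813 genes tested. HepG2, an established human hepatoma cell line, carried a hairpin RNA, either one aimed at p53 (sh-p53) or a control with no relevant target (sh-con). Both lines received DMSO as the control, 10 uM Nutlin or 0.5 mM AICAR for 24 h, which gave 6 groups of 2 Affymetrix arrays from cells plated as biological duplicates. Nutlin keeps MDM2 from binding p53, AICAR activates the energy-sensing kinase AMPK, and the series' design names both as stimulators of p53. Each hairpin is represented by 1 line in the labels, so the effect of the p53 hairpin and any other difference between the lines cannot be told apart, and the p-values measure the spread between duplicate wells.

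IGF1 and IGF2 are secreted ligands that signal through IGF1R, a tyrosine kinase closely related to the insulin receptor INSR. Both receptors phosphorylate IRS1 and IRS2, adaptors that engage PI3 kinase and AKT, while IGF2R, the cation-independent mannose 6-phosphate receptor, carries IGF2 to lysosomes without such signalling. In blood and tissue the ligands are held by binding proteins. The liver is the main source of circulating IGF1 and IGFBP1. Insulin represses the IGFBP1 gene through FOXO factors, and IGFBP3 is known as a target gene of p53.

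Values were RMA log2 expression values, on which a difference of 1 is a doubling of signal, and levels of different probe sets were not set against each other. Array medians ran from 5.64 to 5.84 on the log2 scale, and duplicate arrays had a Pearson r of 0.983 to 0.994 over genes. CDKN1A and MDM2, target genes of p53, served as the check of the labels. Under each treatment they were lower in both sh-p53 arrays than in both sh-con arrays. Nutlin still raised them in sh-p53, by 1.39 for CDKN1A (limma adjusted p = 6.67e-05) and 1.32 for MDM2 (9.08e-05). The sh-con rises were 2.84 and 1.59. The response in sh-p53 minus that in sh-con was -1.45 for CDKN1A (adjusted p = 3.82e-05) and -0.27 for MDM2 (adjusted p = 0.481). The transcript aimed at by the hairpin was not analysed here. All 9 measured hepatocyte markers of 10 listed lay between 10.55 and 13.06 on the log2 scale, above the dim level of 4.58 on every array. Of the markers of other cell types, 1 of 6 endothelial (ENG), 4 of 6 fibroblast (COL1A1, COL1A2, COL3A1, PDGFRB) and 2 of 4 measured leukocyte markers (CD68, CD14) were above that level on every array. Their part in the results was not tested.

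**Figure D1:**
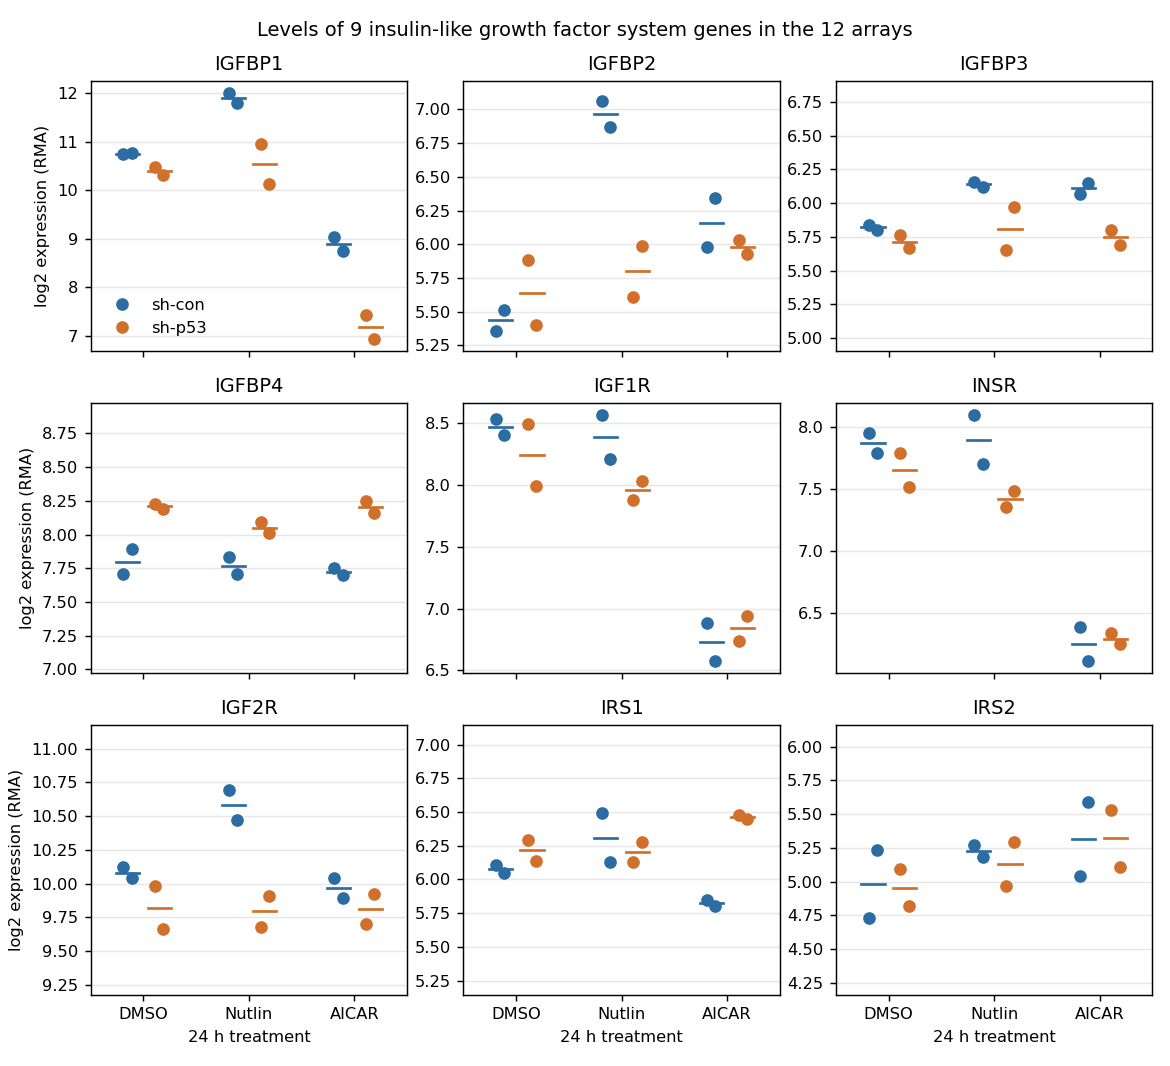
RMA log2 expression values of the 9 genes (y axis, log2 scale, its own range in each panel) by 24 h treatment (x axis) in sh-con and sh-p53 HepG2 cells; points are single arrays and bars the means of 2. The IGFBP1 panel spans from 6.94 in an sh-p53 AICAR array to 12 in an sh-con Nutlin array, and IGF1R and INSR are low in all 4 AICAR arrays.

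The binding proteins gave different patterns. IGFBP1 rose with Nutlin in sh-con, fell with AICAR in both lines, and fell further in sh-p53. IGFBP2 rose with both compounds in sh-con and was called with neither in sh-p53. IGFBP4 was higher in all sh-p53 arrays than in all sh-con arrays whatever the treatment, and IGFBP3 was called in no comparison. A gene was called when its limma p, adjusted by Benjamini-Hochberg over all genes tested, was under 0.05, and each error is the SE of that fit, with n = 2 arrays a group.

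IGFBP1, a small phosphorylated binding protein secreted by hepatocytes, had log2 values of 10.74 and 10.77 in sh-con DMSO, 12 and 11.80 with Nutlin, and 9.04 and 8.75 with AICAR. The sh-p53 values were 10.47 and 10.31 in DMSO, 10.95 and 10.13 with Nutlin, and 7.43 and 6.94 with AICAR. The sh-con Nutlin arrays were above every other array and the sh-p53 AICAR arrays below every other, while the sh-p53 Nutlin arrays lay widely apart and on both sides of the sh-p53 DMSO arrays. Nutlin raised IGFBP1 in sh-con by 1.14 ± 0.22 on the log2 scale (adjusted p = 0.000618). In sh-p53 the difference was 0.15, with a 95% interval from -0.31 to 0.60. AICAR lowered it 3.62-fold in sh-con, a log2 difference of -1.86 ± 0.22 (adjusted p = 3.18e-06), and 9.21-fold in sh-p53, a log2 difference of -3.20 ± 0.22 (adjusted p = 1.31e-08). In bulk RNA, fewer cells expressing a gene and less RNA of it per cell cannot be told apart.

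The responses of IGFBP1 in the lines were also set against each other as interactions, the response in sh-p53 minus that in sh-con. For AICAR the interaction was -1.35 ± 0.30 on the log2 scale (adjusted p = 0.0426). Its size lay between -1.59 and -1.10 when single arrays were left out, but 6 arrays each ended the call when left out: either sh-con DMSO array (adjusted p = 0.14 without the first, 0.119 without the second), either sh-p53 DMSO array (0.139 and 0.118), sh-con AICAR array 1 (0.0687) and sh-p53 AICAR array 2 (0.174). So did changes of processing, when the arrays were quantile normalised again (0.0551) or dim genes were kept (0.0563). For Nutlin the interaction was -1.0 ± 0.30 and was not called (adjusted p = 0.0572). It was -1.41 (adjusted p = 0.00286) without sh-p53 Nutlin array 1 and -0.59 (adjusted p = 0.207) without sh-p53 Nutlin array 2. It was called at adjusted p of 0.0294 to 0.0447 without any 1 of the 4 AICAR arrays.

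IGFBP2, a binding protein abundant in fetal liver and in many tumours, read 5.36 and 5.51 in sh-con DMSO, 7.06 and 6.87 in sh-con Nutlin, and 5.98 and 6.34 in sh-con AICAR. In sh-p53 it read 5.88 and 5.40 in DMSO, 5.61 and 5.99 with Nutlin, and 6.03 and 5.93 with AICAR. The sh-con Nutlin arrays were the highest of all 12, and the sh-p53 Nutlin arrays overlapped the DMSO arrays of their line. Nutlin raised IGFBP2 in sh-con by 1.53 ± 0.18 on the log2 scale (adjusted p = 3.89e-06), and the interaction was -1.37 ± 0.25 (adjusted p = 0.00158). In sh-p53 the Nutlin difference was 0.16, with a 95% interval from -0.22 to 0.54. AICAR raised it in sh-con by 0.72 ± 0.18 (adjusted p = 0.00401), or by 0.54 when sh-con AICAR array 2 was removed, which ended the call (adjusted p = 0.0522). In sh-p53 the AICAR difference was 0.34 (adjusted p = 0.14), and it was 0.59 (adjusted p = 0.0421) without sh-p53 DMSO array 1 but 0.10 (adjusted p = 0.759) without sh-p53 DMSO array 2. The AICAR responses of the lines differed by -0.38, with a 95% interval from -0.92 to 0.15, so a difference between the lines was not shown.

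IGFBP3, the main carrier of IGF1 in blood, read 5.84 and 5.8 in sh-con DMSO, 6.16 and 6.12 with Nutlin, and 6.07 and 6.15 with AICAR. The sh-p53 arrays read 5.76 and 5.67, then 5.65 and 5.97, then 5.8 and 5.69, in the same order of treatments. All 4 treated sh-con arrays were above the 2 sh-con DMSO arrays and above all 6 sh-p53 arrays. The differences missed the threshold: Nutlin gave 0.33 ± 0.14 (adjusted p = 0.0843) and AICAR 0.29 ± 0.14 (adjusted p = 0.104) in sh-con. Between the lines the gap was -0.33 with Nutlin (adjusted p = 0.102) and -0.37 with AICAR (adjusted p = 0.116). The first of these was called without sh-p53 Nutlin array 2 (-0.49, adjusted p = 0.0389) and was -0.17 (adjusted p = 0.611) without sh-p53 Nutlin array 1. Both were called after a second quantile normalisation (0.0489 and 0.0343).

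IGFBP4, which inhibits IGF action and is cut by the protease PAPPA, read 7.71 and 7.89 in sh-con DMSO, 7.83 and 7.71 with Nutlin, and 7.75 and 7.70 with AICAR. In sh-p53 the values were 8.23 and 8.19 in DMSO, 8.09 and 8.01 with Nutlin, and 8.25 and 8.16 with AICAR. No sh-p53 array overlapped an sh-con array. The gap was 0.41 ± 0.13 in DMSO (adjusted p = 0.345), 0.28 ± 0.13 with Nutlin (adjusted p = 0.15) and 0.48 ± 0.13 with AICAR (adjusted p = 0.0301). The AICAR call ended when any 1 of the 4 AICAR arrays was removed, with an adjusted p of 0.0701 and 0.0973 for sh-con array 1 and 2, and of 0.182 and 0.087 for sh-p53 array 1 and 2. It was also lost in a fit of these groups alone (0.132). Neither compound moved IGFBP4 past the threshold in either line, the largest of these 4 differences being -0.16 with Nutlin in sh-p53.

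Among the receptors, both signalling receptors fell with AICAR in both lines, and neither was called with Nutlin. The IGF2 clearance receptor rose with Nutlin in sh-con. IGF1R, the receptor for both IGFs, read 8.53 and 8.40 in sh-con DMSO, 8.56 and 8.21 with Nutlin, and 6.88 and 6.58 with AICAR. The other line read 8.49 and 7.99 in DMSO, 7.88 and 8.03 with Nutlin, and 6.74 and 6.94 with AICAR. All 4 AICAR arrays were below all other arrays. IGF1R fell 3.33-fold in sh-con, a log2 difference of -1.73 ± 0.18 (adjusted p = 7.21e-07), and the difference was -1.40 ± 0.18 in sh-p53 (adjusted p = 8.57e-06). On its other probe set the differences were -2.13 ± 0.17 and -2.22 ± 0.17, so the probe sets gave the same direction and unlike sizes. The lines' responses to AICAR differed by 0.34 on the first probe set, with a 95% interval from -0.19 to 0.86.

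INSR, the insulin receptor, read 7.95 and 7.79 in sh-con DMSO, 8.09 and 7.70 with Nutlin, and 6.39 and 6.12 with AICAR. Values in sh-p53 were 7.79 and 7.51 in DMSO, 7.35 and 7.48 with Nutlin, and 6.34 and 6.25 with AICAR. The AICAR arrays of both lines were again the lowest, and the lines overlapped under AICAR. INSR fell 3.07-fold with AICAR in sh-con, a log2 difference of -1.62 ± 0.16 (adjusted p = 5.54e-07), and the difference was -1.36 ± 0.16 in sh-p53 (adjusted p = 4.37e-06). The responses differed by 0.26, with a 95% interval from -0.22 to 0.74. Under Nutlin INSR was lower in sh-p53 than in sh-con, with a log2 difference of -0.48 ± 0.16 (adjusted p = 0.0413). Removing any 1 of 5 arrays ended that call: sh-con DMSO array 1 or 2 (0.0519 each), sh-con Nutlin array 1 (-0.28, adjusted p = 0.331), and sh-p53 Nutlin array 1 (0.232) or 2 (0.0632). Median centring ended it too (0.0724).

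IGF2R read 10.12 and 10.04 in sh-con DMSO, 10.69 and 10.47 with Nutlin, and 10.04 and 9.89 with AICAR. In sh-p53 it read 9.98 and 9.66 in DMSO, 9.68 and 9.91 with Nutlin, and 9.70 and 9.92 with AICAR. The sh-con Nutlin arrays stood above the other 10 arrays, which lay from 9.66 to 10.12. Nutlin raised it in sh-con by 0.50 ± 0.15 on the log2 scale (adjusted p = 0.0199), which did not hold when sh-con DMSO array 1 (0.0788), its duplicate (0.0957) or sh-con Nutlin array 1 (0.39, adjusted p = 0.136) was removed, nor after median centring (0.0525). The AICAR differences were -0.11 in sh-con, with a 95% interval from -0.44 to 0.21, and -0.01 in sh-p53, with one from -0.33 to 0.31. Under Nutlin IGF2R was lower in sh-p53, with a log2 difference of -0.79 ± 0.15 (adjusted p = 0.00103). The interaction for Nutlin was -0.53 ± 0.22 and was not called (adjusted p = 0.175).

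**Figure D2:**
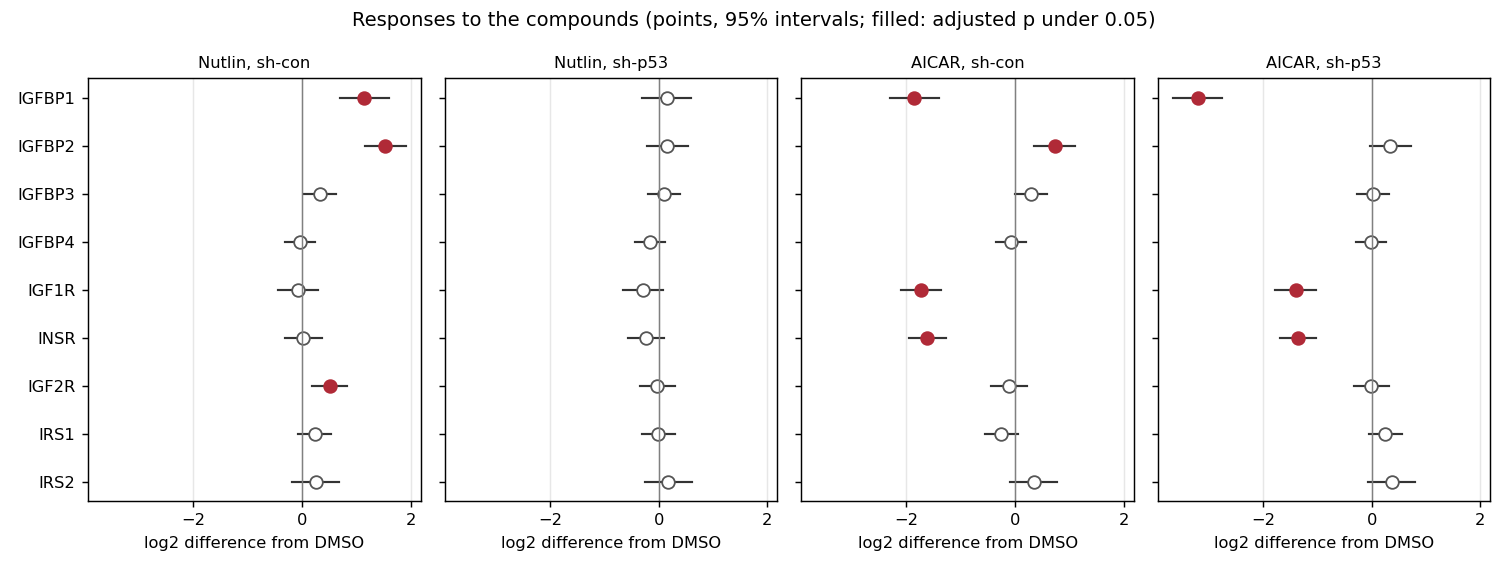
Log2 differences from DMSO (x axis) of the 9 genes (y axis) for each compound and line; points are fitted differences, lines their 95% intervals, and filled points were called at an adjusted p under 0.05. Nutlin has 3 filled points in sh-con and none in sh-p53, while AICAR has IGFBP1, IGF1R and INSR filled at the left in both lines.

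IGF1R and INSR fell together with AICAR and IGF2R did not. A link of this to promoter sequence was not tested, and the sequences just before the start sites of these receptor genes are shown as description only. They are the 250 bases before the start in RefSeq on build GRCh38.p14, chr15:98648289-98648538 on the plus strand for IGF1R, chr19:7294415-7294664 on the minus strand for INSR and chr6:159968832-159969081 on the plus strand for IGF2R. Each is written 5′ to 3′ along its gene, in lower case, with GC boxes in capitals (GGGCGG, or CCGCCC where the box lies on the other strand); boxes that overlap run together.
IGF1R: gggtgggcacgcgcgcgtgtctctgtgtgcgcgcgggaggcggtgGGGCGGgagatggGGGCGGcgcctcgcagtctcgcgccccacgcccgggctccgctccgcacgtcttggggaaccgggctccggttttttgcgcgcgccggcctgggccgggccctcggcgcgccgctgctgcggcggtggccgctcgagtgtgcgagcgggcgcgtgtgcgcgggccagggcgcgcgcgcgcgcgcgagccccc
INSR: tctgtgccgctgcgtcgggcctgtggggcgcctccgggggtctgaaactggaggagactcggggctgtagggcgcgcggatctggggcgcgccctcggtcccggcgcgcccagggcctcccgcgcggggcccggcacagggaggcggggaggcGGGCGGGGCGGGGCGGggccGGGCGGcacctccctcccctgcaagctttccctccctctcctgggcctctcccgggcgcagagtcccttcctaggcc
IGF2R: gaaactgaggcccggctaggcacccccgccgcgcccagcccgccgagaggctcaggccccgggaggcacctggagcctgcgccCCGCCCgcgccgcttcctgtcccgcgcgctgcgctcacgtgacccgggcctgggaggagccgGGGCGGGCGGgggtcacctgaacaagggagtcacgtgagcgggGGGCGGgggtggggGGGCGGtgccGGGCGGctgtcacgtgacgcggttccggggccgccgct

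All 3 windows were rich in G and C, at 81.2% in IGF1R, 78.4% in INSR and 79.2% in IGF2R, against a median of 58.0% over 35116 RefSeq windows of the same length. IGF1R had 48 CpG dinucleotides, INSR 28 and IGF2R 33, against a median of 11. GC boxes, the letters bound by SP1-type factors, numbered 2, 4 and 6, and 42.6% of all windows held at least 1. None of the 3 windows held a TATAAA (10.7% of windows). IGF2R alone of the 3 held the E-box CACGTG, 3 times, which 6.34% of windows hold. No p53 half-site was matched in these windows by its consensus (5.57% of windows), which says only that these letters are not there. RefSeq entries were found for 8 of the 9 genes, in 10 windows. All motifs were searched on both strands, GTAAACA (2.98% of windows) and CAAAACA (4.3%), motifs tied to FOXO factors, among them. The single CAAAACA was in IRS2, and GTAAACA was in none of the 10. The p53 half-site was matched in 1 of the 10, the window of the third RefSeq start of IGFBP2. What part any of these motifs has in the responses was not tested.

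The substrates moved little. IRS1, the adaptor that links the receptors to PI3 kinase, read 6.11 and 6.05 in sh-con DMSO, 6.49 and 6.13 with Nutlin, and 5.85 and 5.8 with AICAR. The sh-p53 arrays read 6.29 and 6.14 in DMSO, 6.13 and 6.28 with Nutlin, and 6.48 and 6.45 with AICAR. Under AICAR the lines stood apart, sh-con at the bottom of all arrays and sh-p53 near the top. IRS1 was higher in sh-p53 than in sh-con under AICAR by 0.64 ± 0.14 on the log2 scale (adjusted p = 0.00941), which rested on both sh-p53 AICAR arrays (adjusted p = 0.0684 when the first was removed and 0.0528 when the second was). Its AICAR difference was -0.26 in sh-con (adjusted p = 0.165) and 0.25 in sh-p53 (adjusted p = 0.181), and the interaction was 0.51 ± 0.20 (adjusted p = 0.281). None of these 3 was called, except that the sh-con difference was -0.39 (adjusted p = 0.0355) after a second quantile normalisation.

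IRS2, the other main substrate in hepatocytes, was near the dim level. It read 4.73 and 5.23 in sh-con DMSO, 5.27 and 5.18 with Nutlin, 5.04 and 5.59 with AICAR, and in sh-p53 5.09 and 4.82, 4.97 and 5.29, and 5.53 and 5.11. The duplicates lay as far apart as the groups. No comparison called it: the AICAR differences were 0.34 (adjusted p = 0.198) in sh-con and 0.37 (adjusted p = 0.168) in sh-p53. The first was 0.62 (adjusted p = 0.0272) without sh-con AICAR array 1 and 0.06 (adjusted p = 0.875) without sh-con AICAR array 2. The second was called in a fit of its own groups alone (adjusted p = 0.0432), and ran from 0.16 to 0.57 without single arrays.

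Counted together, 3 of the 9 genes rose with Nutlin in sh-con and none fell, where 11.3% of all tested genes were called higher and 18.9% lower. The median difference of the 9 genes was 0.25 on the log2 scale, against 0.01 over all tested genes. In sh-p53 limma called 0 of 9 with Nutlin, in either direction, with 0 at an unadjusted p under 0.05. There 0.0796% of all tested genes were called, and CDKN1A and MDM2 still rose, as given above. With AICAR in sh-con 3 fell and 1 rose, where 23.2% of all genes were called lower and 14.6% higher, and the median was -0.11 against 0.04. In sh-p53 3 fell, where 21.6% were called lower, and the median was -0.01 against 0.07. The compounds were compared with the same DMSO arrays. The interactions called 1 of 9 lower for Nutlin, IGFBP2, where 2.73% of all genes were called lower, and 1 of 9 lower for AICAR, IGFBP1, where 0.709% were.

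Compared with the other line, limma called 0 of the 9 genes in DMSO, with 1 at an unadjusted p under 0.05 (IGFBP4), where 0.644% of all tested genes were called in either direction. Under Nutlin 4 were lower in sh-p53, where 8.31% of all genes were. The largest gap was that of IGFBP1, -1.36 ± 0.22 on the log2 scale (adjusted p = 0.000141), followed by IGFBP2 at -1.16 ± 0.18 (adjusted p = 0.000107), with IGF2R and INSR as given above. Under AICAR 1 was lower, where 4.69% of all genes were called lower, and 2 were higher, IRS1 and IGFBP4, where 4.13% were called higher. The one that was lower was IGFBP1, at -1.71 ± 0.22 (adjusted p = 5.97e-05). Without sh-p53 AICAR array 1 or 2 the count under AICAR was 1 instead of 3.

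**Figure D3:**
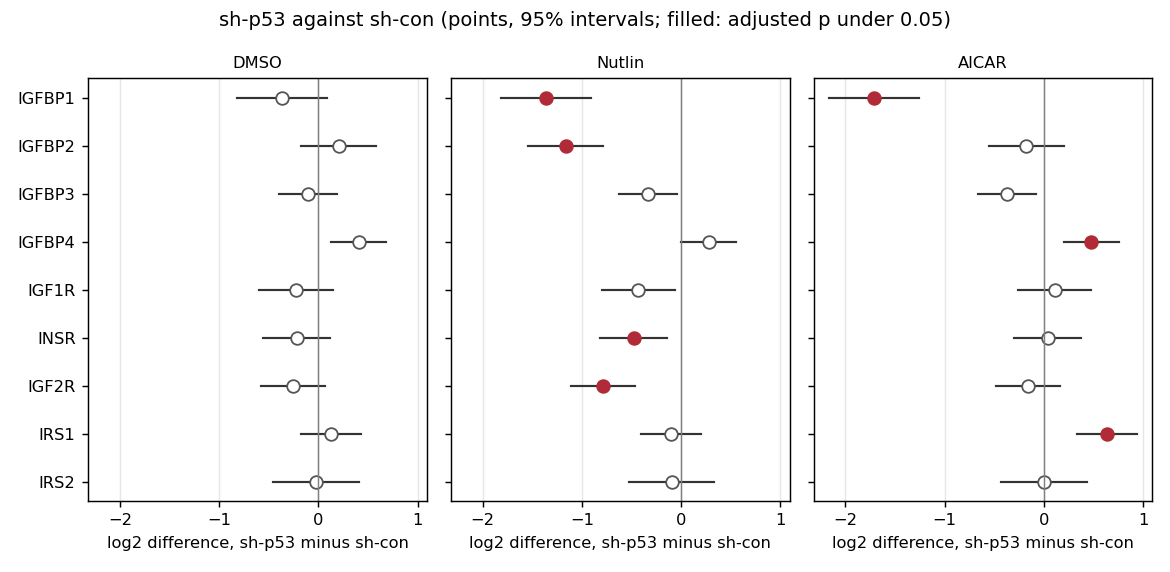
Log2 differences of sh-p53 minus sh-con (x axis) for the 9 genes (y axis) within each treatment; points are fitted differences, lines their 95% intervals, and filled points were called at an adjusted p under 0.05. No point is filled in DMSO, 4 are filled below 0 under Nutlin, and IGFBP1 is at -1.71 under AICAR with IRS1 and IGFBP4 filled above 0.

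Set directly against each other in sh-con, Nutlin gave higher levels than AICAR for 6 of the 9 genes, where 17.9% of all tested genes were called higher. IGFBP1 differed by 3.0, IGF1R by 1.66, INSR by 1.64, IGFBP2 by 0.80, IGF2R by 0.62 and IRS1 by 0.49, all on the log2 scale. IGF2R lost its call without sh-con Nutlin array 1 (adjusted p = 0.0575), and IRS1 lost it without that array (0.2) or sh-con AICAR array 2 (0.0504). In sh-p53 3 of 9 were higher with Nutlin than with AICAR, where 19.0% of all genes were, namely IGFBP1 by 3.35 and IGF1R and INSR by 1.12 each. IGFBP2, IGF2R and IRS1 differed there by -0.18, -0.02 and -0.25, none of them called.

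Across the 12 arrays IGF1R and INSR had nearly the same profile, with a Pearson r of 0.993, the highest among pairs of the 9 genes. The tested genes most like them were the same 2 for both, SHANK2 (r = 0.995 with IGF1R and 0.996 with INSR) and CMIP (0.994 and 0.995). IGFBP1 was most like BCAS3 and SBF2 (0.983 each), and IGFBP2 was most like UNC13A (0.969) and IZUMO1R (0.961). IGF2R was most like LPIN2 (0.975) and TBX3 (0.954), IGFBP3 most like SLC25A45 (0.929) and MAST4 (0.925), and IGFBP4 most like PLA2G2A (0.940) and UBXN10 (0.899). IRS1 was most like LTBP3 (0.933) and HECTD3 (0.895), and IRS2 most like NKG7 (0.976) and PAOX (0.968). These correlations describe 12 arrays in 6 groups, so differences between a few groups can set them. For IRS2, whose duplicates lay as far apart as the groups, differences between duplicates enter them as well.

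Response to AICAR went with the length of the locus in RefSeq (GRCh38.p14) over all tested genes. In sh-con 9.77% of genes under 10 kb were called lower, 15% of those from 10 to 30 kb, 26.3% from 30 to 100 kb, 55.9% from 100 to 300 kb and 63.9% over 300 kb. In sh-p53 these shares were 9.24%, 12.2%, 24.7%, 54.6% and 63.4%. Both signalling receptors are long, IGF1R at 316 kb and INSR at 182.2 kb, and their log2 falls went past the medians of their classes, -0.76 and -0.50 in sh-con. IGF2R is long too, at 142.4 kb, and was not called with AICAR. IGFBP1 is 5.2 kb long and its AICAR difference was -1.86 in sh-con, in a class whose median was 0.19, and -3.20 in sh-p53. Its sh-con fall was the largest of the 9 genes on the probe sets used, but the other IGF1R probe set fell by 2.13 there. IGFBP3, its neighbour among protein-coding genes on chromosome 7, is 9.0 kb long and was not called with AICAR. The genes most like IGF1R and INSR, SHANK2 (785.4 kb) and CMIP (267.0 kb), and those most like IGFBP1, BCAS3 (715.0 kb) and SBF2 (526.2 kb), were also long. What part length has in these results was not tested.

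**Figure D4:**
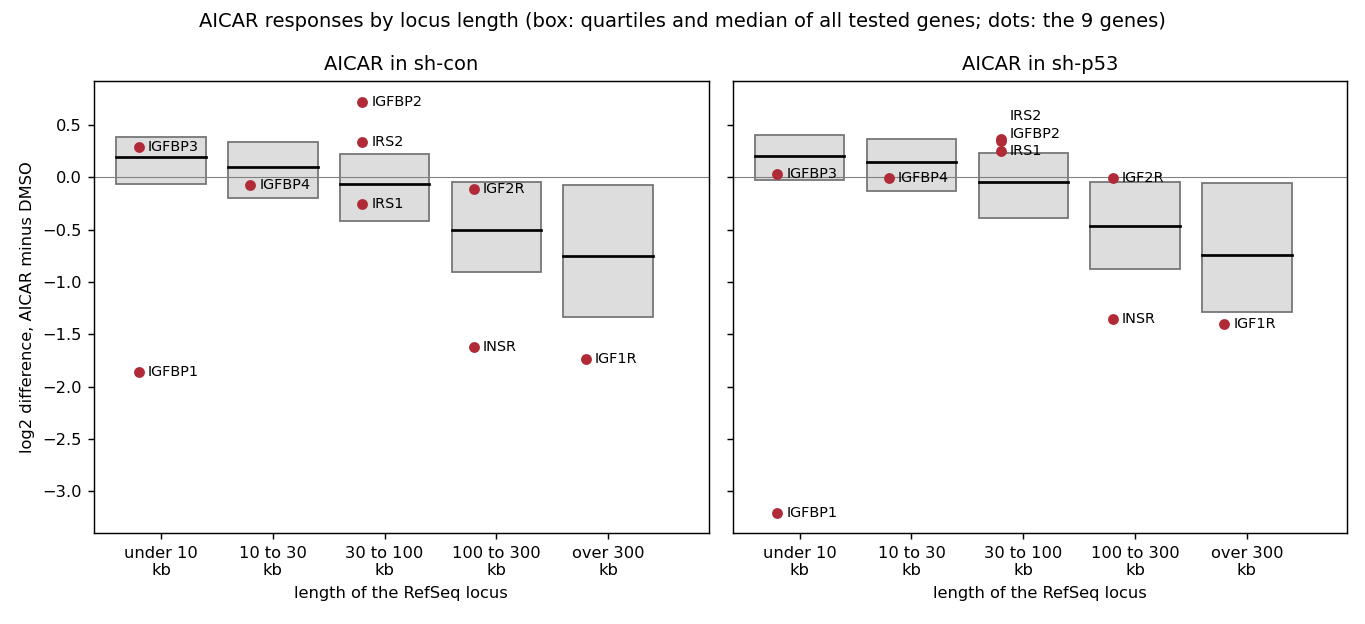
Log2 difference of AICAR minus DMSO (y axis) by class of RefSeq locus length in kb (x axis) in each line; boxes give the quartiles and the line the median of all tested genes, and dots are the 9 genes. The medians go from 0.19 under 10 kb to -0.76 over 300 kb in sh-con, with IGFBP1 far below the box of its class.

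Of a list of 63 other genes of the pathway, 56 were measured on probe sets of 1 symbol and 50 were tested. The ligand IGF1 lay between 3.47 and 4.19 on the log2 scale, below the dim level on every array, and the same held for IGFBP5, the protease PAPPA, its inhibitor STC1 and IRS4. IGF2, INS and IGFBP6 were not analysed here, since no probe set carries any of them as its single symbol. Nutlin in sh-con raised 5 of the 50 and lowered 9, where 11.3% of all tested genes were called higher and 18.9% lower, shares close to those of the list, and the list's median difference was 0.03 on the log2 scale, against 0.01 over all genes tested. AICAR in sh-con raised 2 and lowered 17, where 14.6% of all tested genes were called higher and 23.2% lower (median -0.19 against 0.04). In sh-p53 it raised 8 and lowered 17, where 16.2% were called higher and 21.6% lower (-0.12 against 0.07). Limma called 0 of 50 with Nutlin in sh-p53 (1 at an unadjusted p under 0.05), where 0.0796% of all tested genes were called. Between the lines in DMSO it called 0 of 50 (5 unadjusted), where 0.644% of all tested genes were called. Both counts are near the background.

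Of the 18 listed genes closest to the IGF system, among them ligands, binding proteins and proteases, 9 were tested. Nutlin in sh-con raised 1 of these 9 and lowered 3. AICAR raised 0 and lowered 3 in sh-con, and raised 2 and lowered 4 in sh-p53. Over all tested genes the shares called were 11.3% higher and 18.9% lower, 14.6% and 23.2%, and 16.2% and 21.6%, in the same order. IGF2BP1, IGF2BP2 and IGF2BP3, RNA-binding proteins named for the IGF2 message, all fell with AICAR in both lines. IGF2BP2 (181.9 kb) and IGF2BP3 (160.3 kb) are in a length class where 55.9% (sh-con) and 54.6% (sh-p53) of all genes were called lower. IGF2BP3 read 8.70 and 8.62 in sh-con DMSO and 7.15 and 7.0 with AICAR, and 8.76 and 8.94 in sh-p53 DMSO and 6.97 and 7.18 with AICAR, so that no AICAR array overlapped its controls. Its log2 difference was -1.58 ± 0.14 in sh-con (adjusted p = 1.61e-07) and -1.78 ± 0.14 in sh-p53 (adjusted p = 5.71e-08). With Nutlin in sh-con IGF2BP1 fell by 0.92 and IGF2BP3 by 0.57, and IGFBP7, a secreted protein related to the binding proteins, rose by 0.63. IGFALS, which holds IGF1 and IGFBP3 in a circulating complex, rose by 0.56 with AICAR in sh-p53. In sh-con its AICAR difference was 0.46 and was not called, and neither was its AICAR interaction, 0.10.

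Of 17 adaptors and regulators of the receptors, Nutlin in sh-con raised 2 and lowered 2, AICAR in sh-con raised 2 and lowered 5, and AICAR in sh-p53 raised 2 and lowered 4. Over all tested genes the shares called were 11.3% higher and 18.9% lower, 14.6% and 23.2%, and 16.2% and 21.6%, in the same order, so most of these counts are near the background. ENPP1, a membrane protein that inhibits INSR, read 10.13 and 9.96 in sh-con DMSO, 11.21 and 11.02 in sh-con Nutlin, 9.72 and 9.67 in sh-p53 DMSO, and 9.88 and 9.85 in sh-p53 Nutlin. It rose with Nutlin in sh-con by 1.07 ± 0.14 on the log2 scale (adjusted p = 1.93e-05), with an interaction of -0.90 ± 0.20 (adjusted p = 0.00831). CEACAM1, which promotes clearance of insulin in liver, rose with Nutlin by 0.53 and with AICAR by 0.56 in sh-con, and its Nutlin interaction was -0.76 ± 0.20 (adjusted p = 0.0241). These were the 2 of 50 pathway genes with a called interaction for Nutlin, both lower, where 2.73% of all tested genes were called lower. For AICAR limma called 0 of 50 interactions (5 at an unadjusted p under 0.05). There 42 of all 13813 tested genes were called higher and 98 lower. Both counts of the list are near the background. SOCS1, a feedback inhibitor of cytokine and insulin signalling, rose with AICAR in both lines, by 0.96 (sh-con) and 0.90 (sh-p53). The guanine nucleotide exchange factor SOS1 fell with AICAR in both lines, with differences of -1.39 (sh-con) and -1.11 (sh-p53). The docking protein GAB1 fell by 0.79 with Nutlin in sh-con.

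Downstream of the substrates, 9 of 24 tested genes of the PI3 kinase and AKT pathway fell with AICAR in each line, none rose in sh-con and 4 rose in sh-p53. Over all tested genes 23.2% fell and 14.6% rose in sh-con, and 21.6% fell and 16.2% rose in sh-p53, the last close to 4 of 24. RPTOR, the defining subunit of mTOR complex 1, read 7.85 and 7.89 in sh-con DMSO and 6.08 and 5.82 with AICAR, a log2 difference of -1.92 ± 0.14 (adjusted p = 3.06e-08), and fell by 1.56 ± 0.14 in sh-p53 (adjusted p = 3.23e-07). PIK3CB, a catalytic subunit of PI3 kinase, fell in both lines, with differences of -1.44 (sh-con) and -1.81 (sh-p53). RICTOR, of mTOR complex 2, also fell in both, with differences of -1.03 (sh-con) and -1.30 (sh-p53). FOXO3, a transcription factor that AKT keeps out of the nucleus, rose by 0.66 in sh-p53, and so did the AKT phosphatase PHLPP2, by 0.56. In sh-con their AICAR differences were 0.38 and 0.30 and were not called, and no AICAR interaction was called for them. With Nutlin in sh-con PIK3R3, a regulatory subunit of PI3 kinase, rose by 0.62 and the phosphatase PHLPP1 fell by 0.56. Under AICAR the lipid phosphatase INPPL1 was higher in sh-p53 than in sh-con by 0.74 and the kinase AKT1 by 0.54. Of the 50 listed genes, 19 span over 100 kb and 11 of these fell with AICAR in each line, against 6 of the 31 shorter ones in each line. Over all tested genes in sh-con, 55.9% from 100 to 300 kb and 63.9% over 300 kb were called lower. In the shorter classes the share ran from 9.77% to 26.3%. In sh-p53 these shares were 54.6%, 63.4% and 9.24% to 24.7%, so the counts of the list are near the background.

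**Figure D5:**
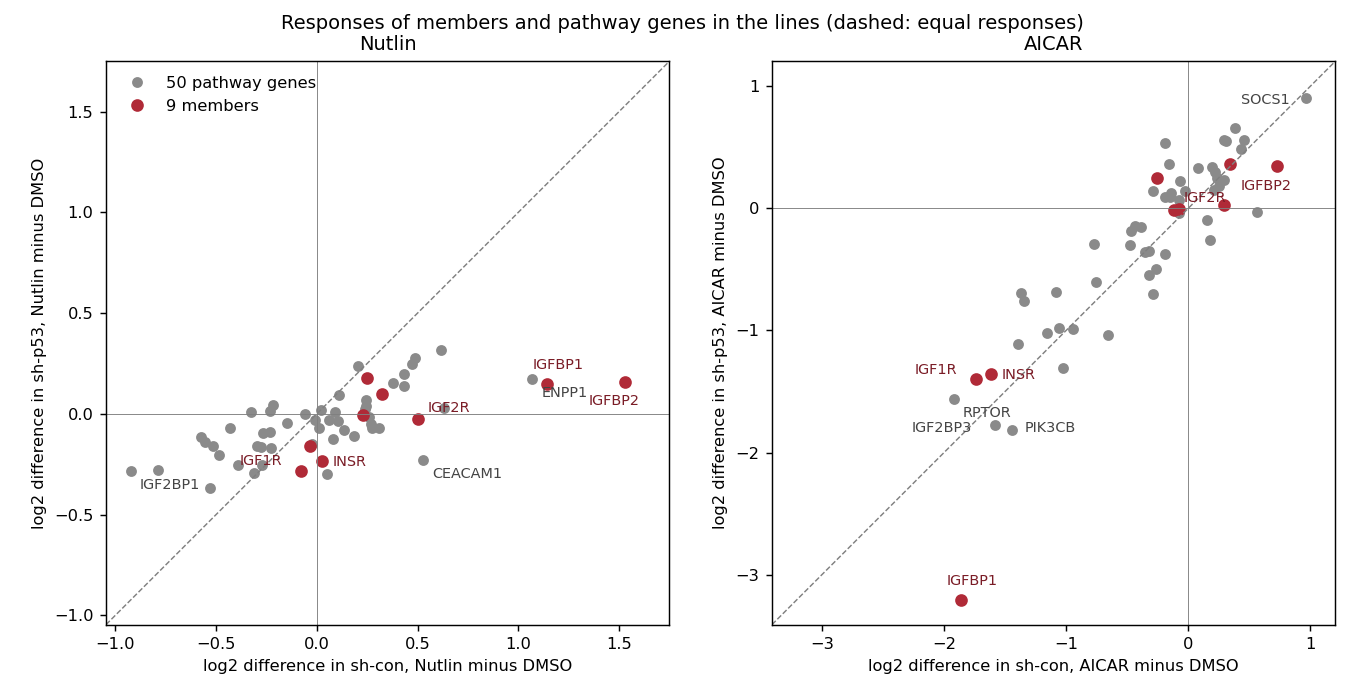
Log2 response in sh-p53 (y axis) against that in sh-con (x axis) for Nutlin and for AICAR, each minus DMSO; red dots are the 9 genes, grey dots the 50 tested pathway genes, and the dashed line marks equal responses. With Nutlin, IGFBP2 (1.53), IGFBP1 (1.14) and ENPP1 (1.07) lie far right of the line, and with AICAR IGFBP1 lies below it at -3.20 in sh-p53.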

How the data were processed

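Total RNA, 200 ng per sample, was measured on Affymetrix gene arrays, per the labels' protocols. The deposited values are on the log2 scale, 1 per probe set and array, made with RMA and Partek per the submitters' processing notes; their versions and settings, and the genome build, are not given in the sources used here. This method pulls arrays towards a common distribution and compresses changes of dim genes. Each of the 12 columns matched 1 title, which gave its group. Of 33297 probe sets, the platform annotation gives 19460 a single symbol, 1754 several and 12083 none. A gene was read from its brightest single-symbol probe set, and genes under the 25th percentile (mean 4.58) were left out.

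Group means were fitted to all 12 arrays with limma 3.58.1 in R 4.3.3, with 6 residual degrees of freedom. There were 11 comparisons, each 2-sided with Benjamini-Hochberg adjustment over all 13813 genes. On simulated data for AICAR against DMSO in sh-con, with independent noise, the script recovered changes of a doubling of signal or more, in either direction. Smaller changes and interactions were not simulated. Same-numbered arrays of different groups deviated with correlations from -0.558 to 0.567, so the numbers were not taken as pairs. The arrays are few, which limits the precision. Alternatives were another scaling, filter, probe set rule, choice of samples, variance prior or block, and leaving out each array.

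Named genes were the 9, the 2 most alike to each, and up to 4 called pathway genes in each direction per comparison with the largest changes; any of these could be given in every comparison, and CDKN1A and MDM2 served as the check of labels. The genes and lists were chosen with earlier results of these data known, and locus length and promoter motifs were added after values were seen. RefSeq tables gave names, lengths (13800 of 13813 genes) and promoter windows. The IGFBP1 promoter is not analysed here.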

Additional observations from a re-analysis of the deposited data

Results flagged for a closer look

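The response of IGFBP2 to Nutlin differed between the lines, with an interaction in limma of -1.37 on the log2 scale (Nutlin response in sh-p53 minus that in sh-con). Both sh-con Nutlin arrays were above all other arrays. The response of IGFBP1 to AICAR also differed, with an interaction of -1.35, being a deeper fall in sh-p53; its call depended on single arrays, as given above.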

How the results depend on the processing

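Over 8 other processing choices and 12 fits without 1 array, no called difference among the 99 tested (9 genes in 11 comparisons) changed direction, 30 single refitted values lost their call and 16 gained one. The count of called genes was 1 for the Nutlin interaction and became 2 with only the groups compared, with a trend in the variance prior and with the replicate block, by gain of IGFBP1 (adjusted p = 0.012 with the block); without single arrays it ran from 1 to 2. The count for the AICAR interaction was 1 and became 0 with a second quantile normalisation and with no filter on dim genes (the values for IGFBP1 stand above), and it ran from 0 to 1 without single arrays. The count for sh-p53 against sh-con under AICAR was 3, ran from 2 to 4 over the other processing choices, and depended on single arrays, as given above. The other 8 counts stayed within 1.5 times of their value, and the replicate block changed no other call of the 9 genes. Median centring moved the median of all tested genes with AICAR from 0.04 to -0.11 in sh-con and from 0.07 to -0.08 in sh-p53. The share of higher genes among all calls went from 38.7% to 22.0%, and from 42.8% to 23.1%, respectively. It went from 30% to 16.9% for the AICAR interaction and from 55.0% to 69.2% for Nutlin against AICAR in sh-p53. The falls of IGFBP1, IGF1R and INSR with AICAR kept their calls under all 20 alternatives, as did the rise of IGFBP1 with Nutlin in sh-con. That of IGFBP2 kept its call in the 19 alternatives that tested it, since the stricter filter left out IGFBP2, IGFBP3, IRS1 and IRS2. The causes of lost calls were not tested. IRS2 lay near the dim level, where changes are compressed.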
